A study of Mus musculus with 8 samples.

Results

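The circadian clock genes examined here are 10 genes taken by symbol: the activators Arntl (also called Bmal1) and Clock, the Period genes Per1, Per2 and Per3, the cryptochromes Cry1 and Cry2, the repressor Bhlhe40 (Dec1), and the output factors Dbp and Tef. All 10 were found among the 13575 genes of the deposited table, and the rule that lists them uses no measured value. RNA came from cultured mouse retinal astrocytes (AC), a glial cell of the inner retina, as 4 libraries labelled Cyp1b1-/- (global loss of the cytochrome P450 gene Cyp1b1) and 4 Cyp1b1+/+ libraries. By the study's methods, cells were prepared from the pooled retinas of 4-week-old mice of one litter with both sexes mixed, although sex-linked genes differed between the groups (given with the check on the labels). They were depleted of CD31-positive endothelial cells, and grown below body temperature in serum with heparin, endothelial growth supplement and interferon-γ, so these agents are common to both groups. The labels enter the strain as C57BL/6 for Cyp1b1+/+ and as C57BL/7, C57BL/8 or C57BL/9 for the others, and these entries were not used. Neither the labels nor the methods state a time of day of harvest, a synchronization step, or whether the replicates were separate cultures, so the p-values measure the spread between these libraries, which may be technical.

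The mammalian clock is a feedback loop of transcription. ARNTL and CLOCK pair and switch on genes that carry an E-box in their promoters, among them the Per and Cry genes, whose proteins return to the nucleus and shut their activators off. BHLHE40 competes for the same E-boxes. A second loop runs through the nuclear receptors REV-ERB (Nr1d1, Nr1d2), which repress Arntl, and ROR (such as Rora and Rorb), which activate it, both through a site called the RORE. DBP and TEF act on the D-box of downstream genes, where NFIL3 opposes them. Cultured cells, astrocytes included, hold such clocks, but single cells drift apart in phase when nothing sets them, and serum or a medium change can reset them. A bulk RNA value at an unstated hour is then an average over phases.

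Promoter sequences of the members, from RefSeq (GRCm38.p6), were searched for the sites these factors bind. Entries were matched for 8 of the 10 (13 entries, 250 bases before to 50 after a start), Per2 and Bhlhe40 being the others, and a match is only a description of the letters. The search covered both strands for the E-box CACGTG, the D-box TTATGTAA or TTACGTAA, the RORE TAGGTCA or TGGGTCA, and the cAMP response element (CRE) TGACGTCA. No match overlapped a match of another motif. Among all 32851 promoter entries, 7.15% held the E-box, 1.06% the D-box, 6.45% the RORE and 1.79% the CRE. Of the 8 members, 3 held an E-box (Per1, Cry1 and Tef), 1 a D-box (Per3), 1 a RORE (Arntl) and 0 a CRE. These counts are per gene, and some members have more than 1 entry, so they are not directly comparable with the shares per entry. The stretches around these matches are given 5′ to 3′ on the strand of the gene, with the motif in capitals, because the E-box genes among them did not share one direction in the comparison of genotypes. Places are by the GENCODE annotation.
Cry1, upstream of the gene, chr10:85185069-85185154, minus strand, E-box at -60 from the start: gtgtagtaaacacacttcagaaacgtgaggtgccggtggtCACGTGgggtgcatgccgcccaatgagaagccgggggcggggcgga
Per1, in an intron of a longer transcript, chr11:69098743-69098828, plus strand, E-box at -166 from the start: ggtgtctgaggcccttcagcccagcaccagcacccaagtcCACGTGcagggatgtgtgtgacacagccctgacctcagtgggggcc
Tef, upstream start, in an exon of the gene, chr15:81802534-81802563, plus strand, E-box at -127 from the start: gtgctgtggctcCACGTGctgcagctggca
Tef, downstream start, in an intron, chr15:81811236-81811321, plus strand, E-box at -138 from the start: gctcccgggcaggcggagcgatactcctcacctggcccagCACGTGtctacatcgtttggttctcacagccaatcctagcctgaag
Per3, upstream of the gene, chr4:151044823-151044910, minus strand, D-box at -205 from the start, with another at -158: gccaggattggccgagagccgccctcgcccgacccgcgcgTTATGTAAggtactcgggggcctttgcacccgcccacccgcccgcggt
Arntl, in an exon of the gene, chr7:113207530-113207559, plus strand, RORE at 30 bases after the start: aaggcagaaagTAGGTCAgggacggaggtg

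The clock genes differed little between the groups. By limma on log2(value + 1), where value is a read count scaled by the authors to a common library size, 6 of the 10 passed an adjusted p of 0.05: Cry1 was higher in the libraries labelled Cyp1b1-/-, and Arntl, Per2, Cry2, Tef and Bhlhe40 were lower. Of all genes tested, 53.7% passed, 26.8% as higher and 26.9% as lower, so the members' share in both directions together lay near that of all genes. By direction it did not: 1 of 10 was higher, a smaller share, and 5 of 10 were lower, a larger one. With 10 genes this split is a description only. In bulk RNA, fewer cells of a type and less RNA per cell cannot be told apart. The median absolute log2 fold change was 0.15 over the members and 0.22 over all genes, and only Bhlhe40 passed with a change of more than 1.5-fold. The plot of fold changes shows the members beside other core factors. In 4 members (Cry1, Per2, Tef and Bhlhe40) the values of the groups did not overlap, which held for 49.3% of all genes.

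**Figure D1:**
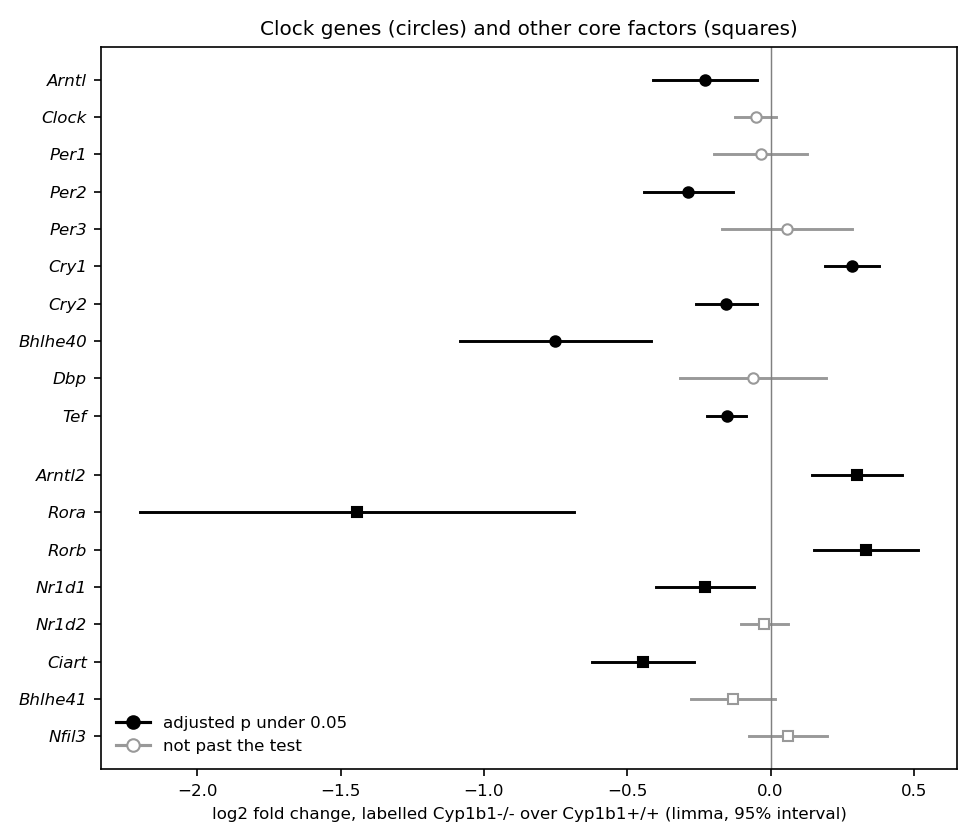
Log2 fold change (libraries labelled Cyp1b1-/- over Cyp1b1+/+, horizontal axis) with its 95% interval from limma for the 10 clock genes (circles) and 8 other core factors (squares); filled black symbols passed an adjusted p of 0.05 and open grey ones did not. Most points lie within 0.5 of zero, with Bhlhe40 at -0.75 and Rora at -1.44 on the left.

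The targeted gene was the first check on the labels. Cyp1b1 had normalized values of 1296, 1276, 1288 and 1368 in replicates 1 to 4 labelled Cyp1b1-/-, against 749, 829, 856 and 882 in Cyp1b1+/+ replicates 1 to 4 (limma, log2 fold change 0.66, SE 0.05, adjusted p = 3.11e-06). It was thus higher where the label names a knockout, and every direction given here rests on the labels. A value per gene does not tell which exons were read, nor the state of the allele. The groups also differed in sex-linked genes. The 4 Y-linked genes Ddx3y, Eif2s3y, Kdm5d and Uty were at 415 to 1553 in the libraries labelled Cyp1b1-/- and at 0 to 1 in Cyp1b1+/+, and Xist, the RNA that silences an X chromosome in female cells, was at 34 to 46 in the libraries labelled Cyp1b1-/- and at 21084 to 26863 in Cyp1b1+/+. Sex-linked expression and genotype label cannot be told apart in these libraries, for the clock genes included. The total normalized value was 19491502 to 20134745 in the libraries labelled Cyp1b1-/- and 19261729 to 19370850 in Cyp1b1+/+, which reflects the scaling, so the depth behind single values is unknown. Replicate 2 labelled Cyp1b1-/- stood apart: across genes, its log2 values had a Pearson correlation of 0.962 with the other libraries of its label, against 0.990 among those. Of 13 astrocyte markers, 8 were among the table's rows and Gfap, S100b, Aldh1l1, Aqp4 and Pdgfra were not. The 8 summed to 117679 to 147701 in the libraries labelled Cyp1b1-/-, highest in replicate 2, and 94338 to 101579 in Cyp1b1+/+. Nearly all of this came from Vim and Nes, which other cultured cells also express. Of the 8, 2 were higher (Vim and Gja1), 2 lower (Nes and Pax2) and 4 did not pass. Pax2, a transcription factor of retinal astrocytes, had 0, 0, 1 and 0 in the libraries labelled Cyp1b1-/-, against 28, 29, 39 and 35 in Cyp1b1+/+. Markers of pericytes and smooth muscle (3 of 8 listed, mainly Acta2 and Tagln) summed to 42013 to 68385 in the libraries labelled Cyp1b1-/-, highest in replicate 2, and 39469 to 47066 in Cyp1b1+/+. Acta2 and Tagln did not pass, and Pdgfrb, the pericyte receptor, was lower, at 301, 738, 343 and 361 in the libraries labelled Cyp1b1-/-, against 725, 883, 808 and 857 in Cyp1b1+/+ (limma, adjusted p = 0.00445). Endothelial cells (1 of 8 listed, Kdr), microglia and macrophages (1 of 7, Csf1r), Müller glia (1 of 5), photoreceptors and neurons (1 of 8) and retinal pigment epithelium (2 of 6) each summed to under 230. The Müller glia gene measured, Slc1a3, is also on the astrocyte list. That sum therefore cannot tell Müller glia from astrocytes, and low sums from so few genes do not show absence. Pecam1, Cdh5, Ptprc, Rlbp1 and Rpe65 were not among the rows. The part of cell makeup in the clock gene results was not tested.

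Of the 2 activators, Arntl was slightly lower in the libraries labelled Cyp1b1-/- and Clock did not pass the test. Arntl (ENSMUSG00000055116, chromosome 7, 113207465 to 113314126 of GRCm38) had 337, 367, 312 and 334 in replicates 1 to 4 labelled Cyp1b1-/-, against 382, 345, 434 and 425 in Cyp1b1+/+. The groups overlapped, since replicate 2 labelled Cyp1b1-/- lay above Cyp1b1+/+ replicate 2. Arntl averaged 338 ± 22.6 in the libraries labelled Cyp1b1-/- and 396 ± 41.2 in Cyp1b1+/+ (± SD, n = 4 each, limma, log2 fold change -0.23, SE 0.08, adjusted p = 0.0358). The call ended without replicate 1, 3 or 4 labelled Cyp1b1-/- (adjusted p = 0.0693, 0.0949 and 0.0723) and without Cyp1b1+/+ replicate 3 or 4 (0.103 and 0.101). It also ended without a variance trend in the test (0.0537). Clock (ENSMUSG00000029238, chromosome 5, 76209868 to 76304792), the partner of ARNTL, varied less between libraries, with 2447, 2371, 2469 and 2480 in the libraries labelled Cyp1b1-/-, against 2651, 2468, 2516 and 2495 in Cyp1b1+/+. The 95% interval of its log2 fold change was -0.12 to 0.02 (limma, adjusted p = 0.200). Arntl2, a paralog of Arntl that also pairs with CLOCK, ran the other way, at 853, 815, 951 and 874 in the libraries labelled Cyp1b1-/-, against 628, 690, 771 and 749 in Cyp1b1+/+ (limma, log2 fold change 0.30, adjusted p = 0.00445). The groups did not overlap for Arntl2. Npas2, which can stand in for CLOCK, was not among the rows.

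Among the Period genes, which encode the repressor's rhythmic subunits, only Per2 passed. Per2 (ENSMUSG00000055866, chromosome 1, 91415982 to 91459324) had 288, 262, 272 and 293 in replicates 1 to 4 labelled Cyp1b1-/-, against 318, 316, 369 and 360 in Cyp1b1+/+. All of the first set lay below all of the second (two-sided p = 0.0286 by exact permutation, the least possible with 4 libraries against 4). This p is not adjusted and restates the lack of overlap, which 49.3% of all genes showed. By the same exact permutation, Cry1, Tef and Bhlhe40 had the same p, and Arntl and Cry2 each had p = 0.0571. Per2 averaged 279 ± 14.3 in the libraries labelled Cyp1b1-/- and 341 ± 27.7 in Cyp1b1+/+ (± SD, n = 4 each, limma, log2 fold change -0.29, SE 0.07, adjusted p = 0.00572). Per1 (ENSMUSG00000020893, chromosome 11, 69095217 to 69109960), which serum and glucocorticoids can induce quickly, had 721, 622, 802 and 763 in the libraries labelled Cyp1b1-/-, against 717, 786, 743 and 722 in Cyp1b1+/+. Its lowest and its highest value both came from libraries labelled Cyp1b1-/-. The 95% interval of its log2 fold change was -0.20 to 0.13 (limma, adjusted p = 0.708). Per3 (ENSMUSG00000028957, chromosome 4, 151003652 to 151044665), the Period gene least needed for rhythm in mice and the member with the D-boxes, had 259, 226, 301 and 306 in the libraries labelled Cyp1b1-/-, against 247, 266, 287 and 244 in Cyp1b1+/+. The groups overlapped, and the interval was -0.17 to 0.28 (limma, adjusted p = 0.657). Replicate 2 labelled Cyp1b1-/- held the lowest value of all 8 libraries for Per1, Per2 and Per3.

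The cryptochromes, the partners of the Period proteins and the stronger repressors of the activators, moved in opposite directions. Cry1 (ENSMUSG00000020038, chromosome 10, 85131700 to 85185064) had 812, 770, 810 and 817 in replicates 1 to 4 labelled Cyp1b1-/-, against 666, 623, 689 and 659 in Cyp1b1+/+. It was higher in every library labelled Cyp1b1-/- than in any Cyp1b1+/+ library, and was the only member that passed as higher. Cry1 averaged 802 ± 21.7 in the libraries labelled Cyp1b1-/- and 659 ± 27.4 in Cyp1b1+/+ (± SD, n = 4 each), 21.7% higher by the fit (limma, log2 fold change 0.28, SE 0.04, adjusted p = 0.000272). Cry2 (ENSMUSG00000068742, chromosome 2, 92403646 to 92434043) had 974, 934, 905 and 944 in the libraries labelled Cyp1b1-/-, against 958, 1102, 1056 and 1069 in Cyp1b1+/+. Only Cyp1b1+/+ replicate 1 lay within the range of the other group. Cry2 averaged 939 ± 28.5 in the libraries labelled Cyp1b1-/- and 1046 ± 61.9 in Cyp1b1+/+ (± SD, n = 4 each, limma, log2 fold change -0.15, SE 0.05, adjusted p = 0.0197). Cry2 no longer passed without replicate 3 labelled Cyp1b1-/- (adjusted p = 0.0560) or without Cyp1b1+/+ replicate 2 or 4 (0.0610 and 0.0560). An antisense transcript, D930015M05Rik, shares 4.67% of the exon bases of Cry2 and was listed at 14 to 24.

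**Figure D2:**
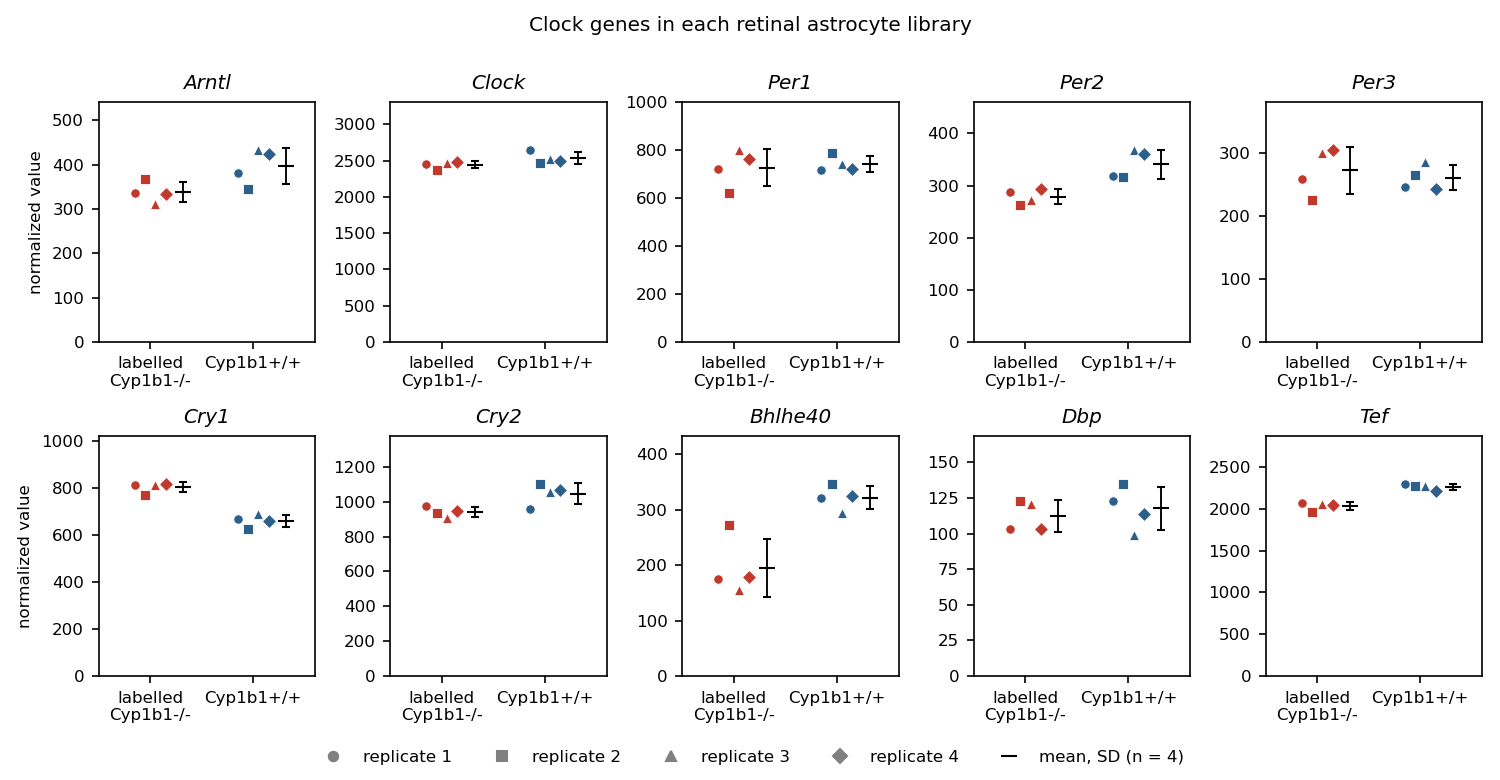
Normalized value (vertical axis, from 0) of each clock gene in the 4 libraries labelled Cyp1b1-/- (red, left) and the 4 Cyp1b1+/+ libraries (blue, right), with a marker shape for each replicate number and black bars for mean and SD. Cry1 is the one gene whose red points all lie above the blue ones, while for Per2, Tef and Bhlhe40 they all lie below.

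Because a ratio of 2 genes within a library does not depend on how libraries were scaled, the ratios of members are given as well, without a test. Cry1 over Cry2 was 0.834, 0.824, 0.895 and 0.865 in replicates 1 to 4 labelled Cyp1b1-/-, against 0.695, 0.565, 0.652 and 0.616 in Cyp1b1+/+. Per2 over Cry1 was 0.347 ± 0.011 in the libraries labelled Cyp1b1-/- and 0.517 ± 0.031 in Cyp1b1+/+ (SD, n = 4 each). In both ratios, which share Cry1, the groups lay apart. For Per2 over Cry1 this follows from the single genes, whose values lay apart in opposite directions. Arntl over Dbp, an activator against an E-box output, was 3.02 ± 0.32 in the libraries labelled Cyp1b1-/- and 3.44 ± 0.79 in Cyp1b1+/+. There the groups overlapped, and Cyp1b1+/+ held both the lowest and the highest library, 2.56 and 4.38. Per2 over Per1 overlapped too, at 0.386 ± 0.035 in the libraries labelled Cyp1b1-/- and 0.460 ± 0.046 in Cyp1b1+/+.

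**Figure D3:**
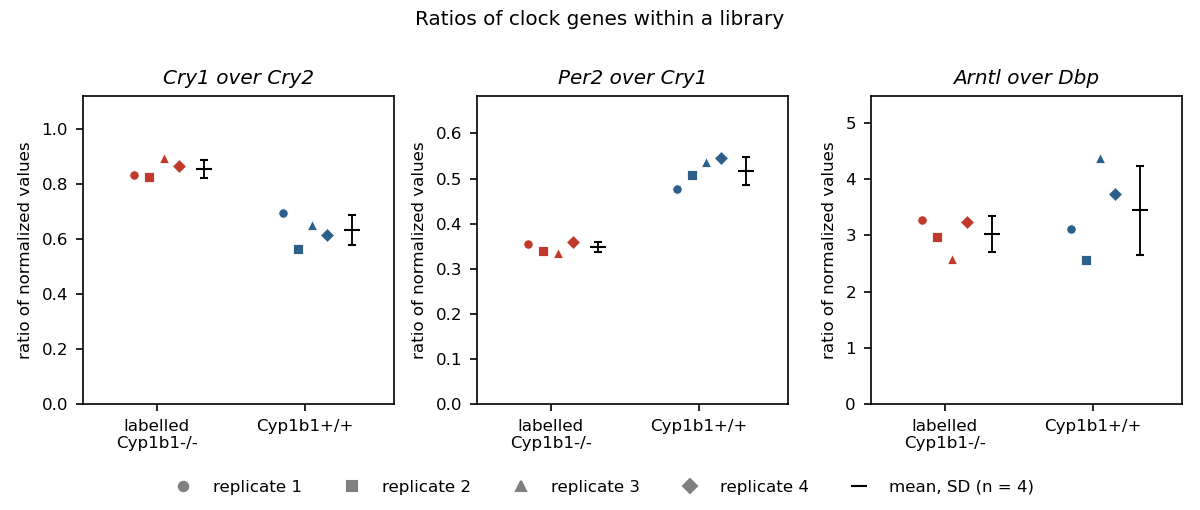
Ratio of the normalized values of 2 clock genes within each library (vertical axis, from 0), for libraries labelled Cyp1b1-/- (red, left) and Cyp1b1+/+ (blue, right), with mean and SD as black bars. Cry1 over Cry2 and Per2 over Cry1 separate the groups, and Arntl over Dbp does not.

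Bhlhe40, the E-box repressor that is also induced by hypoxia, serum and cytokines, had the largest difference of the 10. Bhlhe40 (ENSMUSG00000030103, chromosome 6, 108660629 to 108666925) had 175, 272, 155 and 179 in replicates 1 to 4 labelled Cyp1b1-/-, against 321, 347, 295 and 325 in Cyp1b1+/+. The groups did not overlap, but replicate 2 labelled Cyp1b1-/- lay closer to the lowest Cyp1b1+/+ library than to the others of its label. Bhlhe40 averaged 195 ± 52.2 in the libraries labelled Cyp1b1-/- and 322 ± 21.3 in Cyp1b1+/+ (± SD, n = 4 each), and by the fit it fell by 40.6% (limma, log2 fold change -0.75, SE 0.15, adjusted p = 0.00176). Without replicate 2 labelled Cyp1b1-/- the log2 fold change was -0.92 (adjusted p = 3.85e-07). Its size exceeded that of 87.5% of all genes, whereas the other 9 members exceeded 9.22% to 59.7%. Bhlhe41 (Dec2), the paralog of Bhlhe40, had 359, 344, 348 and 301 in the libraries labelled Cyp1b1-/-, against 397, 364, 361 and 357 in Cyp1b1+/+, and did not pass (limma, log2 fold change -0.13, 95% interval -0.28 to 0.02, adjusted p = 0.120).

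The genes with the profile nearest to that of Bhlhe40 were found over the 8 libraries among 11556 other genes with a mean of at least 50. Likeness was the root mean square difference of log2(value + 1) after each gene's own mean was taken off. Prickle2, a planar cell polarity gene, was nearest at 0.069, with 108, 167, 93 and 109 in the libraries labelled Cyp1b1-/-, against 195, 201, 172 and 172 in Cyp1b1+/+. Layn, a hyaluronan receptor (0.078), Lmod1, a leiomodin of smooth muscle (0.089), Osbpl6, an oxysterol binding protein (0.092), and Synj2, a phosphoinositide phosphatase (0.096), followed. All 5 shared the higher value in replicate 2 labelled Cyp1b1-/- than in the other libraries of that label, as the plot of centered profiles shows. This follows from choosing genes by likeness to Bhlhe40 over these same libraries, so it is a description only. None of the 5 genes is on the lists of clock genes used here.

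**Figure D4:**
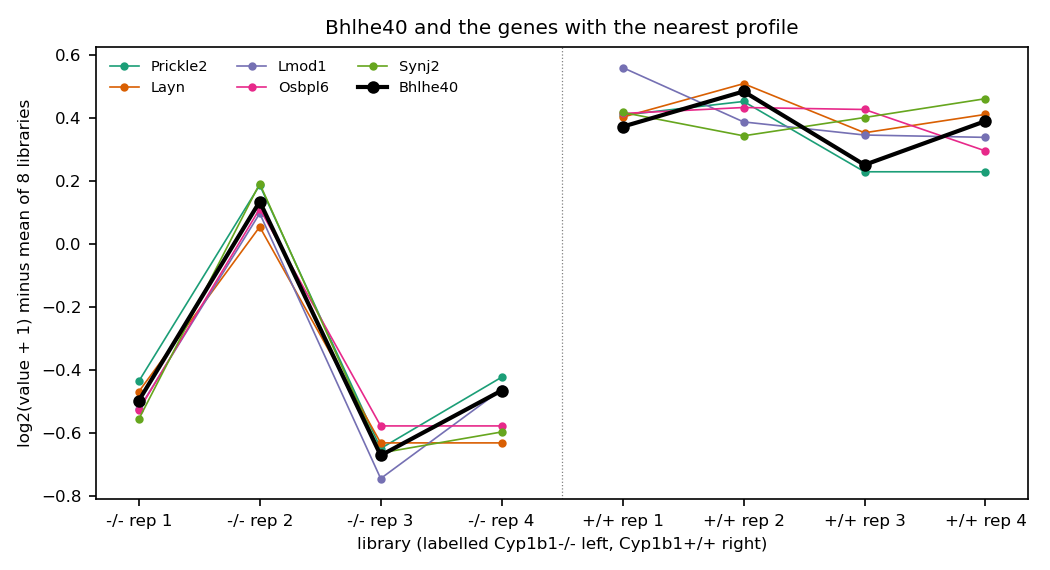
Log2(value + 1) minus the gene's mean over 8 libraries (vertical axis) for Bhlhe40 (black) and the 5 genes of nearest profile (colors), in libraries labelled Cyp1b1-/- (left of the dotted line) and Cyp1b1+/+ (right). In all 6 genes the 4 libraries on the right lie highest, and replicate 2 labelled Cyp1b1-/- lies above the other 3 of its label. The 5 genes were chosen for their likeness to Bhlhe40 over these libraries.

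Of the output factors, Tef was lower and Dbp did not pass. Tef (ENSMUSG00000022389, chromosome 15, 81802421 to 81826863) had 2067, 1967, 2064 and 2048 in replicates 1 to 4 labelled Cyp1b1-/-, against 2300, 2270, 2280 and 2209 in Cyp1b1+/+. The groups lay apart, at 2036 ± 47.1 in the libraries labelled Cyp1b1-/- and 2265 ± 39.2 in Cyp1b1+/+ (± SD, n = 4 each), and by the fit Tef fell by 10.1% (limma, log2 fold change -0.15, SE 0.03, adjusted p = 0.00157). Dbp (ENSMUSG00000059824, chromosome 7, 45705088 to 45710203), often the most rhythmic output gene of a tissue, had 103, 123, 121 and 103 in the libraries labelled Cyp1b1-/-, against 123, 135, 99 and 114 in Cyp1b1+/+. The groups overlapped throughout, and the 95% interval of the log2 fold change was -0.32 to 0.19 (limma, adjusted p = 0.675). Its value is also uncertain because of an overlap: 18.0% of its exon bases are shared with Sphk2 on the opposite strand, which was listed at 391 to 519, and whether reads were counted by strand is not given in the sources used here. Nfil3, which opposes DBP and TEF, had 342, 379, 344 and 365 in the libraries labelled Cyp1b1-/-, against 344, 370, 340 and 317 in Cyp1b1+/+ (limma, log2 fold change 0.06, 95% interval -0.08 to 0.20, adjusted p = 0.422). Hlf, another factor of the DBP family, was not among the rows.

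The members' levels were compared per kilobase of exon, since counts rise with transcript length. The length was that of all annotated exons of a gene merged, not of the transcripts expressed, and the order between genes depends on it. By normalized value per kilobase the order was Tef (259 in the libraries labelled Cyp1b1-/- and 288 in Cyp1b1+/+), Cry1 (240 and 197), Clock (178 and 184), Cry2 (149 and 166) and Per1 (129 and 132). These 5 kept their rank in all 8 libraries, where each gene was divided by the same length throughout. Below them, Bhlhe40 (41.5 and 68.4), Per2 (47.6 and 58.2), Arntl (44.9 and 52.7) and Dbp (37.6 and 39.3) had ranges that overlapped their neighbors and changed places between libraries. Per3 was last in every library (28.4 and 27.2). Spread between libraries of one label differed among members as well. The coefficient of variation within the libraries labelled Cyp1b1-/- was lowest for Clock (2.01%) and Tef (2.31%) and highest for Per3 (13.8%) and Bhlhe40 (26.8%). Within Cyp1b1+/+ it was lowest for Tef (1.73%) and Clock (3.21%) and highest for Arntl (10.4%) and Dbp (12.9%). Clock and Tef also had the highest mean values over the 8 libraries (2487 and 2151), and Dbp the lowest (115). Counting error, which weighs more at low values, was not separated from other spread. The coefficient of Bhlhe40 in the libraries labelled Cyp1b1-/- includes replicate 2, at 272 against 155 to 179 in the others.

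Other core factors of the clock moved both ways. Of 11 listed, 8 were among the rows, of which 2 were higher (Arntl2 and Rorb), 3 lower (Rora, Nr1d1 and Ciart) and 3 did not pass (Nr1d2, Bhlhe41 and Nfil3). Of all genes 53.7% passed, so nothing particular to core factors is read from these counts. Nr1d1, the REV-ERBα gene that represses Arntl, had 640, 810, 657 and 644 in replicates 1 to 4 labelled Cyp1b1-/-, against 803, 865, 776 and 768 in Cyp1b1+/+ (limma, log2 fold change -0.23, adjusted p = 0.0281). Replicate 2 labelled Cyp1b1-/- alone overlapped the other group, and without it the change was -0.31 (adjusted p = 0.000132). The call ended without replicate 1, 3 or 4 labelled Cyp1b1-/- (adjusted p = 0.0785, 0.0704 and 0.0762), without Cyp1b1+/+ replicate 1 or 2 (0.0522 and 0.0831), and with no variance trend (0.0535). Nr1d2, the REV-ERBβ gene, averaged 1483 ± 60.6 in the libraries labelled Cyp1b1-/- and 1504 ± 33.0 in Cyp1b1+/+ (SD, n = 4 each, and limma, adjusted p = 0.652).

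Of the ROR genes, which oppose REV-ERB at Arntl, Rora was lower and Rorb higher. Rora had 16, 45, 14 and 13 in the libraries labelled Cyp1b1-/-, against 56, 52, 55 and 52 in Cyp1b1+/+ (limma, log2 fold change -1.44, SE 0.34, adjusted p = 0.00482). At these low values replicate 2 again lay near the Cyp1b1+/+ libraries, and without it the change was -1.84. Rorb had 257, 213, 271 and 247 in the libraries labelled Cyp1b1-/-, against 193, 207, 196 and 185 in Cyp1b1+/+ (limma, log2 fold change 0.33, adjusted p = 0.00601), with no overlap. Ciart (Chrono), a repressor of ARNTL and CLOCK whose promoter window held 3 E-boxes, had 223, 190, 191 and 184 in the libraries labelled Cyp1b1-/-, against 245, 267, 292 and 269 in Cyp1b1+/+ (limma, log2 fold change -0.44, adjusted p = 0.000953). Like Per2, it was lower in each library labelled Cyp1b1-/- than in any Cyp1b1+/+ library.

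Genes around the core were read from further lists, 62 measured genes in all with the core factors. Of these, 21 were higher and 11 lower, together a share near the 53.7% of all genes that passed. By direction, 26.8% of all genes were higher and 26.9% lower, and the splits by direction in these lists are descriptions only. Of 21 kinases, phosphatases and stability factors of clock proteins, 8 rose and 2 fell, together a share below the 53.7% of all genes. The 8 that rose were a share above the 26.8% of all genes, and the 2 that fell a share below the 26.9%. The 3 with the smallest p were Ppp1ca, a catalytic subunit of protein phosphatase 1 (limma, log2 fold change 0.37, adjusted p = 1.51e-05), Sirt1, a deacetylase that acts on PER2 and ARNTL (0.55, adjusted p = 1.67e-05), and Gsk3b, a kinase of several clock proteins (-0.31, adjusted p = 2.78e-05). Of 10 partners of the repressor complex, 3 rose and 0 fell: Timeless, which in mammals acts mainly at replication forks (0.54, adjusted p = 2.67e-06), Ddx5, a helicase (0.28, adjusted p = 0.000578), and Nono, a PER partner (0.15, adjusted p = 0.00229). The 3 of 10 lie near the 26.8% of all genes that were higher, and the 0 of 10 lie below the 26.9% that were lower. Of 8 reported clock outputs measured, 2 rose and 4 fell, beside 26.8% and 26.9% of all genes. Cdkn1a, the p21 gene (limma, log2 fold change -0.30, adjusted p = 8.36e-05), fell and Nampt, an NAD salvage enzyme (0.22, adjusted p = 0.00059), rose.

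Genes induced by signals that can reset a clock, or encoding factors that carry those signals, were listed too. Of 8 genes induced by glucocorticoids or encoding their receptor, 5 were higher and 1 lower, with Sgk1, a kinase (limma, log2 fold change 1.54, adjusted p = 1.48e-10), and Cebpd, a transcription factor (0.82, adjusted p = 0.000774), higher and Fkbp5, a chaperone of the receptor (-0.36, adjusted p = 0.00119), lower. Of 8 CREB and serum response genes, 2 were higher, Creb1 (0.31, adjusted p = 0.000134) and Crem (0.63, adjusted p = 0.000167), and 1 lower, the orphan receptor Nr4a1 (-0.41, adjusted p = 0.00343). Of all genes, 26.8% were higher and 26.9% lower, and with 8 genes a list these counts are descriptions only. Fos, an immediate early gene, had 28, 955, 35 and 30 in the libraries labelled Cyp1b1-/-, against 32, 34, 32 and 43 in Cyp1b1+/+. Egr1, another, had 220, 780, 229 and 214 in the libraries labelled Cyp1b1-/-, against 290, 230, 287 and 257 in Cyp1b1+/+. Neither Fos nor Egr1 passed the test (limma, adjusted p = 0.379 and 0.672). Replicate 2 labelled Cyp1b1-/- was thus the library with high Fos and Egr1 and with the lowest Per1, Per2 and Per3. It also held the highest sums of astrocyte markers and of pericyte and smooth muscle markers, and the highest Bhlhe40, Nr1d1 and Rora of its label. The part of that library's state in these values was not tested. Without that library Cry1, Per2, Cry2, Tef, Arntl and Bhlhe40 passed the test in the same directions.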

How the data were processed

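The authors sequenced poly-A libraries from paired ends. Per their processing notes and methods, the authors used bcl2fastq 2.20, STAR 2.5.3a with GRCm38.p6, RSEM for quantification, a filter against genes of low abundance, and TMM scaling in edgeR 3.28.0. The deposited score of a gene in a library is this scaled count, rounded to a whole number and called the normalized value. Raw counts were not used here, so no count model was run and counting error was not estimated. The authors' own fold changes, p-values and selected gene list were not used.

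Groups and replicate numbers came from the sample titles. All 8 libraries were fitted with limma 3.58.1 (R 4.3.3) on log2(value + 1), with a variance trend and no covariate. P-values were adjusted by Benjamini-Hochberg across every one of the 13575 genes and called at 0.05. The script was tested on simulated data. The added constant makes fold changes of low genes smaller. Intervals are 95%. Python 3.11.15, numpy 2.4.6, pandas 2.3.3 and matplotlib 3.10.9 made tables and plots. Coordinates and exon lengths are of GENCODE release M21 (GRCm38), and promoters of RefSeq. Alternatives were pseudocounts of 0.5 and 0.1, median-of-ratios rescaling, equal totals, a minimum of 10 in every library, the replicate number as a block, no variance trend, and leaving out each library. The members and the lists were chosen with earlier results of these data known. The text names all members, all measured core factors, the 3 genes of smallest p in each further list and the 5 nearest profiles. Some genes that this rule would name are not reported here. Fos, Egr1, Sphk2, D930015M05Rik, the Y-linked genes and Xist were named after their values were seen.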

Additional observations from a re-analysis of the deposited data

Results flagged for a closer look

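In 6 of 68 groups of 4 libraries examined, one library lay far from the other 3, where chance alone flags about 1 in 20 groups. In the libraries labelled Cyp1b1-/- these were Cry1 (770 in replicate 2, against 810 to 817 in the others), Nr1d1 (810 in replicate 2), Rora (45 in replicate 2) and Ddx5, a helicase of the repressor complex (23367 in replicate 2). In Cyp1b1+/+ they were Nr1d2 (1553 in replicate 1) and Gsk3b (2927 in replicate 1). All 4 of the first set fell on the same library, the one that also held high Fos and Egr1, and its part in these values was not tested.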

How the results depend on the processing

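Of the 10 clock genes, 6 passed in the fit reported, and 5 to 6 under the alternatives that kept all libraries: 5 with no variance trend and with the replicate block, in both cases by the loss of Arntl (adjusted p = 0.0537 and 0.0795 from limma). Without single libraries 4 to 6 passed, of which 1 was always higher, Cry1, and 3 to 5 were lower. The count of lower members was 3 without replicate 3 labelled Cyp1b1-/- or without Cyp1b1+/+ replicate 4. Cry1, Per2, Tef and Bhlhe40 passed under all 15 alternatives, with log2 fold changes of 0.26 to 0.30, -0.32 to -0.25, -0.18 to -0.14 and -0.92 to -0.65. Of the members and core factors that did not pass, 4 changed sign as single libraries were left out, while Clock, Bhlhe41 and Nfil3 kept theirs: Per1 ranged from -0.084 to 0.038, Per3 from -0.0013 to 0.14, Dbp from -0.14 to 0.0069 and Nr1d2 from -0.044 to 0.0017. The values showed no sign that replicate numbers pair the samples. Deviations of same-numbered libraries correlated at -0.023 to -0.004, and 0 of 4 libraries labelled Cyp1b1-/- correlated best with its own number. Whether same-numbered libraries were prepared together is not stated, and these correlations cannot settle it. The replicate block changed no member's call except that of Arntl. Rescaling by median ratios or to equal totals moved the median of all genes by 0.003 and -0.026 and turned no direction among the members. The paper states an average number of reads per genotype but not the depth of each library, and counting error was not set beside the smaller differences.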
